A study of Mus musculus with 2 samples.

Results

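The genes described here are 10 regulators and markers of the oligodendrocyte lineage, namely Olig1, Olig2, Sox10, Sox8, Nkx2-2, Myrf, Zfp488, Tcf7l2, Pdgfra and Cspg4. They were chosen by symbol from the 21938 protein-coding genes of GENCODE M21, the mouse annotation on assembly mm10, and all 10 were found. DNase-seq had been run on the frontal cortex of mice of the F1 hybrid strain B6CASTF1/J, all male and aged 14 days. There were 2 libraries in 1 group, numbered as biological replicates 1 and 2, each from tissue of 3 males. Their tissue samples are labelled as distinct, yet the donor number is 1 and the same for both, so the gap between them may be partly technical. No other tissue, age or treatment was available for comparison, and no p-value is given.

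DNase I cuts chromatin where it is not packed in nucleosomes, so clusters of cut ends (peaks) mark open promoters and enhancers, and short protected stretches inside them (footprints) mark DNA shielded by bound protein. Oligodendrocytes, the myelin-forming cells of the brain, arise from precursor cells that carry the receptor PDGFRA and the proteoglycan NG2, the product of Cspg4. Olig2, Sox10 and Nkx2-2 act in precursors, Zfp488 and Tcf7l2 in differentiating cells, and Myrf switches on myelin genes as precursors mature. In mice the second postnatal week is a period of active oligodendrocyte formation in the cortex. In bulk tissue, fewer cells of a type and weaker opening in each cell cannot be told apart.

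Both libraries together gave 53624 shared regions, each joining peaks of both libraries that overlapped by at least 1 bp. Replicate 1 had 75753 peaks and replicate 2 had 77035. The height of a peak is the authors' own signal value, whose scale is not stated and may differ between libraries, and total read depth was not used here. A promoter was taken as 1000 bp on either side of any annotated start site of the gene. As a check of the tissue label, 6 of 8 cortical marker genes had promoter peaks in replicates 1 and 2, beside 59.7% of all coding genes. With 8 genes, that count alone says little about the tissue. Fezf2 had a promoter peak in neither library and Slc17a7 in replicate 2 alone. Of 6 markers of other brain regions, 0 had one in both libraries, and Hoxb5 and Hoxc5 had one in replicate 1 alone, at 0.418 and 0.454.

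The open DNA around the 10 genes is shown first by its sequence. The 6 stretches below come from the tallest region of a gene that was away from coding start sites, nearest to or inside that gene, and free of annotated exons. They are shown because their regions carry the highest signal of each gene away from its start sites. The heights belong to the whole regions, not to the stretches. The Sox8 region is 680 bp wide, and its stretch does not lie at the middle. Each is 240 bases of mm10, written 5′ to 3′ along the strand of the gene named, with capitals for bases that lay in footprints of both libraries. They are the Sox8 region at chr17:25556316-25556555 (minus strand), the Cspg4 region at chr9:56868361-56868600 (plus strand), the Olig1 region at chr16:91266041-91266280 (plus strand), the Nkx2-2 region at chr2:147178841-147179080 (minus strand), the Olig2 region at chr16:91191861-91192100 (plus strand) and the Tcf7l2 region at chr19:55953341-55953580 (plus strand).
Sox8, downstream: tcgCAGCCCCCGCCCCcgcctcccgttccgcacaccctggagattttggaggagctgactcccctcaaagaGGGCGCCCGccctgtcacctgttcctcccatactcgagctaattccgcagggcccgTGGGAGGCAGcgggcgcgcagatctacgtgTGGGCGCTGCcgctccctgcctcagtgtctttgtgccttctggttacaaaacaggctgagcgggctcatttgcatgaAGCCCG
Cspg4, intron: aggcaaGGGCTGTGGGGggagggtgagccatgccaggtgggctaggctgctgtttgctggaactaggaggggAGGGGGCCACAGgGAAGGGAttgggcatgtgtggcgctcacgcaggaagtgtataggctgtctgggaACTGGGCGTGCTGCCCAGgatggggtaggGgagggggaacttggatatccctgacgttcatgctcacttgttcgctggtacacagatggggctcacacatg
Olig1, upstream: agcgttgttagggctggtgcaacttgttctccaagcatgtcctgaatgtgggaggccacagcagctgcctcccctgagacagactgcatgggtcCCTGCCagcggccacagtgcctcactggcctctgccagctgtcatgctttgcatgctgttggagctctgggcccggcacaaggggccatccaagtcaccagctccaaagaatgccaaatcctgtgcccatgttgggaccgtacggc
Nkx2-2, intron: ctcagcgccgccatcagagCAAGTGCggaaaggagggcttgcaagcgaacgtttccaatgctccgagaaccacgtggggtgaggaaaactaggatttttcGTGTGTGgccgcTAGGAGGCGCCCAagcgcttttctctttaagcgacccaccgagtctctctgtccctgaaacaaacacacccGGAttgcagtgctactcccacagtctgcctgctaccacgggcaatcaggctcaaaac
Olig2, upstream: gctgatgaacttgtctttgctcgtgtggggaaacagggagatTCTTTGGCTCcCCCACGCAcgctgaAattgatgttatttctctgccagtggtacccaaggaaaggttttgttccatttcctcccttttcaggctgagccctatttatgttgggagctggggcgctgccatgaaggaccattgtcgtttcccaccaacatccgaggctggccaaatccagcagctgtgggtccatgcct
Tcf7l2, downstream: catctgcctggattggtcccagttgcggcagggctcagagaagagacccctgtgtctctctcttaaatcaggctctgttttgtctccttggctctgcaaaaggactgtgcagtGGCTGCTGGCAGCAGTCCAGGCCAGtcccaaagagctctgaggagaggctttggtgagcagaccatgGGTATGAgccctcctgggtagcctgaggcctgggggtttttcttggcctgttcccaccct
The Cspg4 stretch had 49 bases and the Sox8 stretch 48 bases in footprints of both libraries, each in 5 runs. The Tcf7l2 stretch had 32 such bases in 2 runs, and its run of 25 bases was the longest in the 6 stretches. The Nkx2-2 stretch had 30, the Olig2 stretch 19 and the Olig1 stretch 6.

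The promoter regions of Olig1 and Olig2 upstream of the annotated start are printed for comparison, a choice made after their values were seen. The Olig1 stretch is 211 bases at chr16:91269561-91269771 and the Olig2 stretch 276 bases at chr16:91225181-91225456, both on the plus strand.
Olig1, promoter: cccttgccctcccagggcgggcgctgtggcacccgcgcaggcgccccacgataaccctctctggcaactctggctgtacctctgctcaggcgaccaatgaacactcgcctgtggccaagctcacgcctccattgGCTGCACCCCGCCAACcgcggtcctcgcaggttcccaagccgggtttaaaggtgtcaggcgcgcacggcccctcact
Olig2, promoter: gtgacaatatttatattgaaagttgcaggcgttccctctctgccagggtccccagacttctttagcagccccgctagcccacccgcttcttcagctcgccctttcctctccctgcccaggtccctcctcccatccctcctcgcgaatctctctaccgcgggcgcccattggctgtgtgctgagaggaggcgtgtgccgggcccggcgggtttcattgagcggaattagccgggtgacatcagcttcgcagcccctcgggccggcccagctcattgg
The Olig1 promoter had 1 run of 16 bases in footprints of both libraries. The Olig2 promoter stretch had 0 such bases, although footprints were called in its region in each library.

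Promoters were open at 6 of the 10 genes in both libraries, or 60.0%, beside 59.7% of all coding genes, so the count itself does not set these genes apart. The 6 were Olig1, Olig2, Sox8, Zfp488, Tcf7l2 and Pdgfra. Sox10 had a promoter peak in replicate 1 alone, and Nkx2-2, Myrf and Cspg4 had none. Most of the open promoters were low. Among all coding genes whose promoters had peaks in both, the median height was 3.03 in replicate 1 and 2.96 in replicate 2, and only Sox8 exceeded it.

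**Figure D1:**
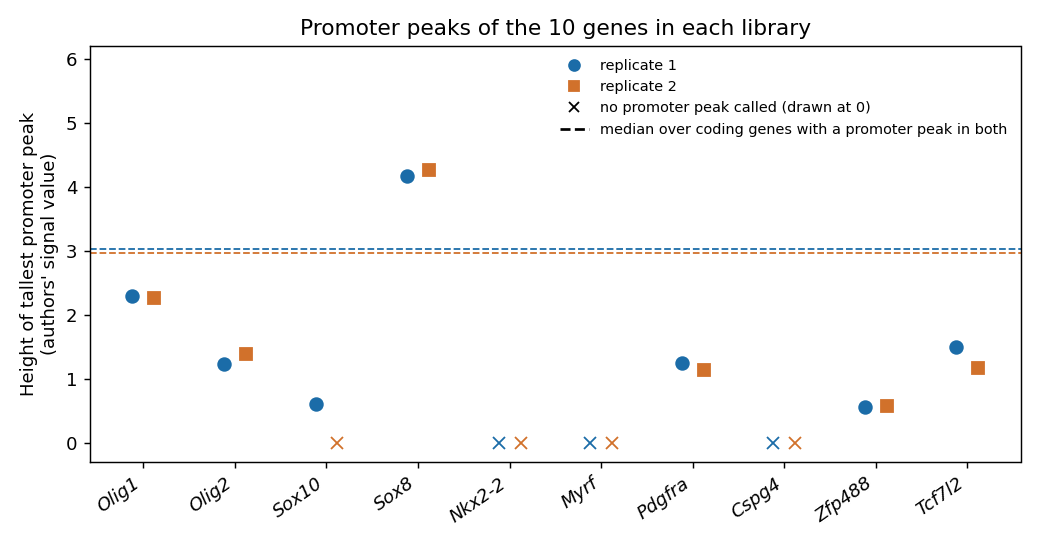
Height of the tallest promoter peak of each of the 10 genes (vertical axis, the authors' signal value) in replicate 1 (circles) and replicate 2 (squares), with crosses at 0 where no promoter peak was called and dashed lines at the median of all coding genes whose promoters had peaks in both. Sox8, at 4.17 and 4.26, is the 1 gene above both lines, and Nkx2-2, Myrf and Cspg4 have no promoter peak.

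The cut-rate track, which lists bases with a false discovery rate below 0.05 whether or not a peak was called, gave the same 6 genes. The track and the peaks come from the same libraries, so this match is not a separate line of support. Listed bases lay in the promoters of 6 of the 10 in both libraries, beside 60.5% of all coding genes. The Sox10 promoter had 73 listed bases in replicate 1 and 0 in replicate 2. The Myrf promoter had 0 in replicate 1 and 49 in replicate 2, with a lowest false discovery rate of 0.0121. At the promoters of Nkx2-2 and Cspg4 there were 0 listed bases in either library. The absence of a peak at these promoters is a statement about calls at this unknown depth, not about closed DNA.

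The windows used for the wider description ran from 50 kb before each gene to 50 kb past it. They held 72 shared regions, 7 of them in the windows of both Olig1 and Olig2, which are neighbours. Of the 72, 50 lay away from every coding start site (over 1000 bp), beside 64.5% of all shared regions, and 22 were promoter regions. Only 11 of these 22 were promoters of the 10 genes, and the other 11 belonged to neighbouring genes alone. By distance, 47 of the 72 regions were nearest to a start site of 1 of the 10 genes. A region nearest to a gene is not thereby shown to act on it.

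**Figure D2:**
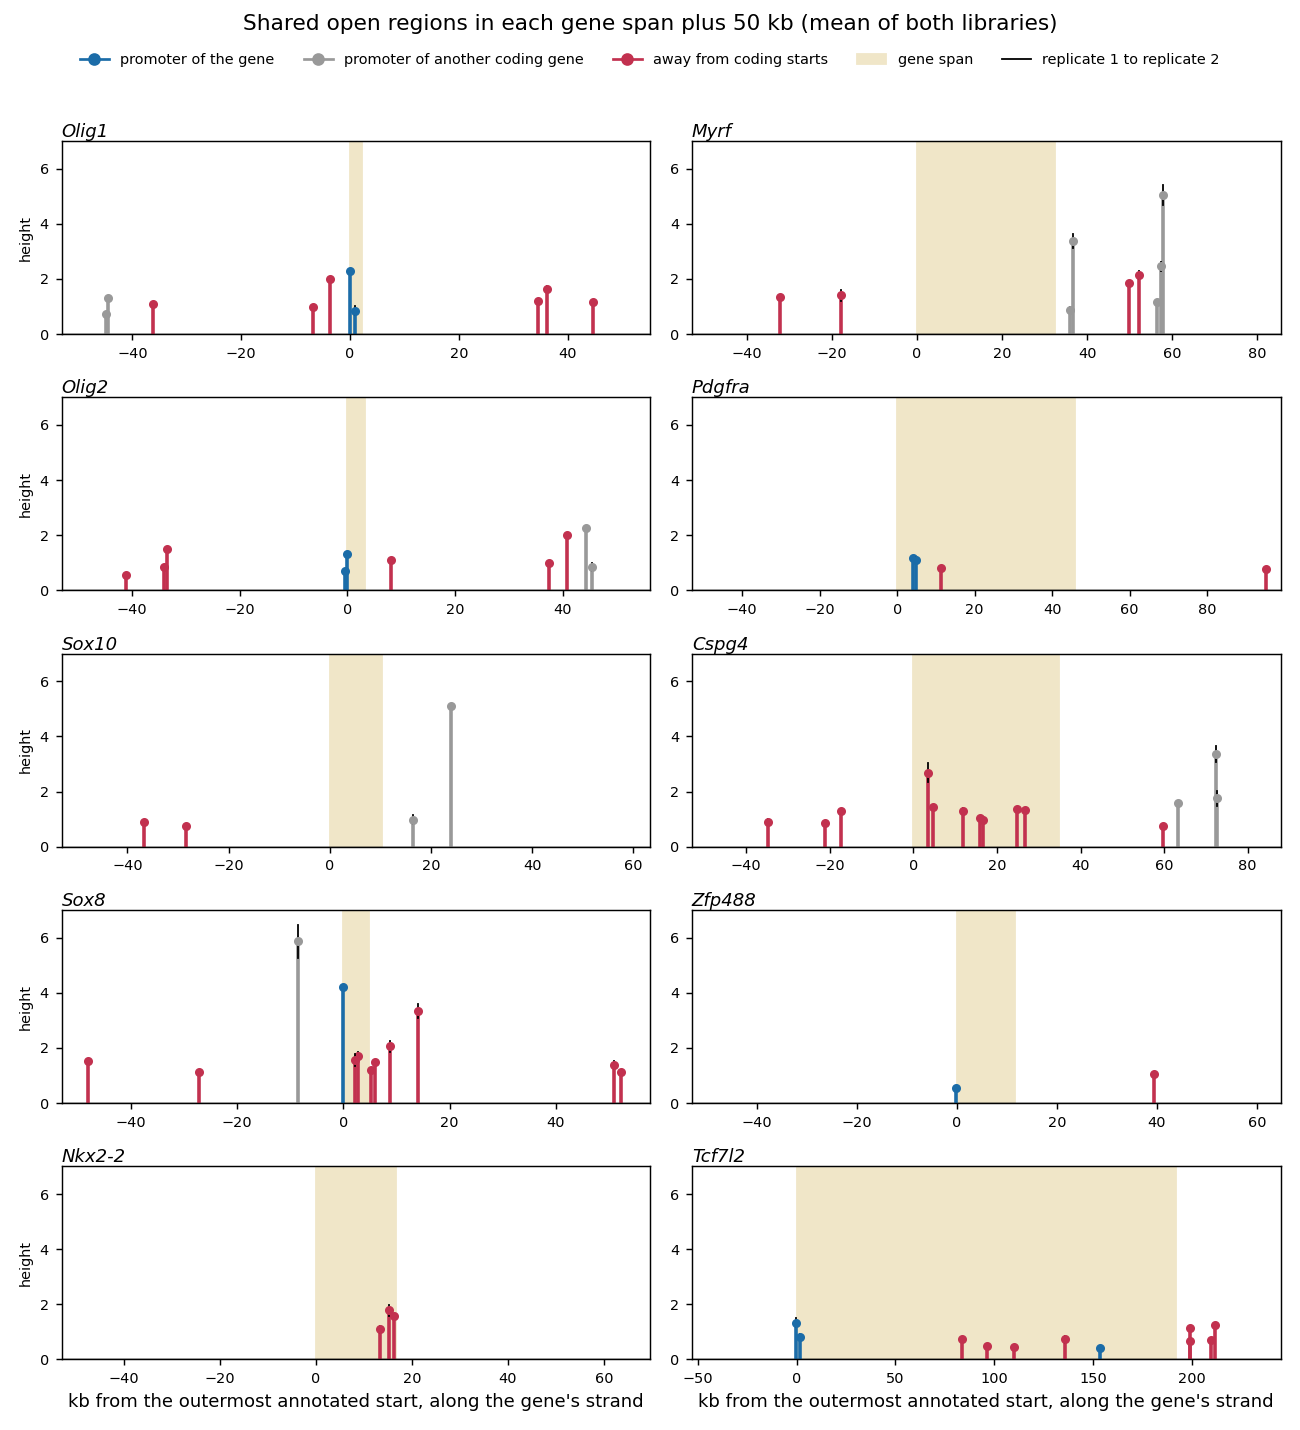
Position (horizontal axis, kb from the outermost annotated start along the gene's strand) and mean height of both libraries (vertical axis, the authors' signal value) of every shared region in the 10 windows, with the gene span shaded and a black line joining the heights of replicates 1 and 2. Open regions crowd around Sox8 and within Cspg4, sit only in the far part of the Nkx2-2 span, and are absent from the Myrf span.

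The density of shared regions differed widely among the 10 genes. Sox8 had 11.5 regions per 100 kb of window, Cspg4 10.4, Olig1 9.79 and Olig2 9.69, all at or above percentile 95.1 of coding genes. At the other end, Zfp488 had 1.79, Nkx2-2 2.57 and Pdgfra 2.74. The median of the 10 was 5.28, beside 3.46 over all coding genes, with 7 of 10 above that value. Among these 7, Sox10 at 3.63 and Tcf7l2 at 3.77 were only just above. For regions away from start sites the median was 2.88 beside 1.35. Of the 10 genes, 9 were above 1.35, Pdgfra only just at 1.37, and Zfp488 was below at 0.895. The Myrf value of 3.02 came wholly from regions nearest to other genes, and 1 of the 2 Sox10 regions was nearer to Pick1. The 1 such region of Zfp488 was nearer to Gdf2. The dense windows also held regions of neighbours. Of all shared regions, 7 of 12 at Sox8, 7 of 14 at Cspg4, 7 of 10 at Olig1 and 6 of 10 at Olig2 were nearest to the gene itself. The Olig1 and Olig2 windows share most of their regions and are not independent.

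**Figure D3:**
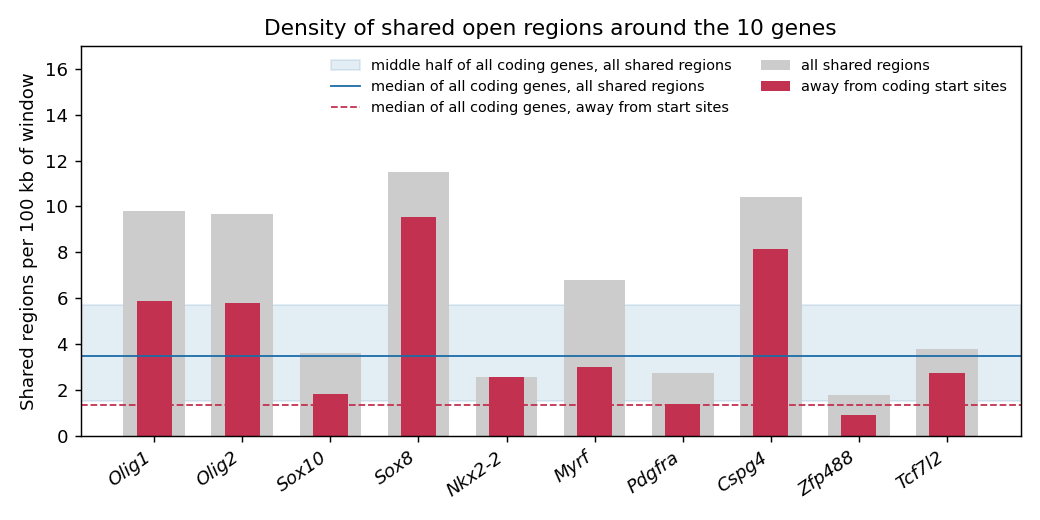
Shared regions per 100 kb of window (vertical axis) for each of the 10 genes, with all regions in grey and those away from coding start sites in red. The blue line and band mark the median, 3.46, and the quartiles, 1.52 and 5.70, over all coding genes, and the dashed line the median away from start sites, 1.35; Sox8, Cspg4, Olig1 and Olig2 stand above the band.

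The bHLH factors Olig1 and Olig2 lie side by side on chromosome 16. Olig2 commits progenitors to the lineage, and Olig1 is known for roles in maturation and repair. The Olig1 promoter peak (chr16:91269561-91269800) had a height of 2.29 in replicate 1 and 2.26 in replicate 2, a mean of 2.28 ± 0.0231 (SD, n = 2). The Olig2 promoter peak (chr16:91225181-91225520) had 1.23 and 1.38, a mean of 1.30 ± 0.103 (SD, n = 2). In each library the Olig1 promoter was the higher, and the values of the pair did not overlap. Each gene also had a second, lower promoter region. That of Olig1, in its exon at chr16:91270581-91270940, had 0.693 and 1.01, and that of Olig2, upstream at chr16:91224886-91225020, had 0.752 and 0.667.

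Both windows of this locus held 10 shared regions, and the regions away from start sites were all outside coding genes. The tallest lay 3.6 kb upstream of Olig1 (chr16:91266041-91266280, intergenic), with 1.96 in replicate 1 and 2.06 in replicate 2. It was taller in both libraries than the Olig2 promoter and stood at percentiles 89.9 and 92.0 of shared regions away from start sites. Next for Olig1 came regions 36.1 kb downstream (chr16:91305641-91306140), with 1.74 and 1.56, and 34.5 kb downstream (chr16:91303961-91304600), with 1.18 and 1.21. Both lie in the span of the long noncoding RNA gene Gm15966, and the former held 5 shared footprints, the most at this locus.

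For Olig2, the tallest region outside the interval between the genes lay 33.5 kb upstream (chr16:91191801-91192160), with 1.41 and 1.57. It held 2 shared footprints, from 5 footprints in replicate 1 and 7 in replicate 2. A lower region next to it, 34.0 kb upstream, had 0.776 and 0.901. Between the genes, 8.2 kb downstream of the Olig2 start (chr16:91233481-91233800), a region had 1.05 and 1.14 and no shared footprint. Thus the 3 tallest regions away from start sites in the Olig2 window were the one near Olig1, the one 33.5 kb upstream and the one 8.2 kb downstream.

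The SoxE factors Sox10 and Sox8 share an HMG-box DNA-binding domain and overlap in function, with Sox10 the main activator of myelin genes. Their loci differed in these data. Sox8 (chromosome 17) had a promoter peak (chr17:25570621-25570880) of 4.17 in replicate 1 and 4.26 in replicate 2, a mean of 4.21 ± 0.0666 (SD, n = 2), at percentiles 63.3 and 65.2 of open promoters. This region is shared with an exon of the antisense transcript 2810468N07Rik, and the data do not tell the start sites apart. Sox10 (chromosome 15) had a promoter peak only in replicate 1, 431 bp upstream of the start (chr15:79165621-79165720), with a height of 0.597 and a false discovery rate of 0.0189 at its best base.

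The Sox8 window was the densest of the 10, with 12 shared regions, 10 of them away from start sites. The tallest lay 14.1 kb downstream of the Sox8 start (chr17:25556241-25556920), intergenic between coding genes and within the span of the long noncoding RNA gene AC131323.3. Its heights were 3.58 and 3.10, percentiles 98.0 and 97.2 of regions away from start sites. It held 8 footprints in replicate 1 and 12 in replicate 2, of which 7 were shared. The next were a region 8.8 kb downstream (chr17:25561641-25562040), with 2.27 and 1.84, and one across the UTR and a coding exon of Sox8 (chr17:25567821-25568100), with 1.85 and 1.60. An intronic region (chr17:25568277-25568538) had 1.79 and 1.35. These 4 regions were all lower in replicate 2, while the promoter was not. All 12 regions of the Sox8 window held a shared footprint. The tallest region of the window, at 6.46 and 5.28, was the promoter of the neighbour Lmf1.

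Around Sox10 there were 4 shared regions, and 0 lay in the gene. A region 28.4 kb upstream (chr15:79193526-79193760) had 0.776 in replicate 1 and 0.751 in replicate 2, and was the only 1 nearest to the Sox10 start. The tallest away from start sites lay 36.8 kb upstream (chr15:79201861-79202163), with 0.836 and 0.959, and was nearer to Pick1. The remaining pair were promoter regions of Polr2f, the taller of which it shares with 1700088E04Rik, at 5.06 and 5.15. A further 3 peaks were called in replicate 1 alone and 5 in replicate 2 alone, more than the shared regions of the window.

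Nkx2-2 (chromosome 2) encodes a homeodomain factor that acts in the specification and differentiation of the lineage. Its window held 3 shared regions and no other peak in either library, and all 3 lay within the gene, between 13.4 and 16.4 kb from the outermost annotated start. Along the gene, the intronic region at chr2:147180721-147180960 had 1.21 in replicate 1 and 0.967 in replicate 2. The intronic region at chr2:147178841-147179080, the tallest, had 1.59 and 1.99. The region in a coding exon at chr2:147177781-147178000 had 1.52 and 1.61. The tallest held 4 shared footprints and the exonic one 3. None of the 4 annotated start sites had a peak, and the start site nearest to these regions was 5141 bp away.

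Myrf (chromosome 19) encodes a membrane-bound factor that releases its DNA-binding part and activates myelin genes. Its density of 6.79 regions per 100 kb, percentile 83.4, came wholly from neighbours. Of 9 shared regions in the window, 0 were inside Myrf and 0 were nearest to its start. They were nearest to Fads1, Fen1, Tmem258 and Dagla, and the Fads1 promoter was the tallest, with 5.41 and 4.67. The tallest region away from start sites was in an intron of Fads1 (chr19:10188341-10188740), with 2.27 and 2.00. Replicate 2 alone had a peak in a Myrf intron (chr19:10232821-10232947), with a height of 0.751. It also had peaks 2449 bp and 3616 bp upstream of the start, at 0.876 and 0.901. At the latter, replicate 1 had 46 listed bases but no peak.

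Zfp488 (chromosome 14), a zinc finger gene known to act with Olig2, had the lowest promoter of the 6 open in both libraries. The peak (chr14:33978861-33979019) had 0.549 in replicate 1 and 0.567 in replicate 2, a mean of 0.558 ± 0.0126 (SD, n = 2). The only other shared region of its window (chr14:33939241-33939460), with 0.979 and 1.14, was nearer to Gdf2.

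Tcf7l2 (chromosome 19) encodes an HMG-box partner of beta-catenin that is active in newly formed oligodendrocytes and is also known from neurons of other brain regions. Its main promoter (chr19:55741361-55741980) had 1.49 in replicate 1 and 1.17 in replicate 2, a mean of 1.33 ± 0.230 (SD, n = 2), the widest gap among the 6 open promoters. A second promoter region 1.9 kb into the gene had 0.717 and 0.917. The third, at internal start sites 153.7 kb into the gene, had 0.394 and 0.459. All 11 shared regions of this long window were nearest to Tcf7l2 itself. The tallest away from start sites were intergenic and beyond the gene's end, 211.6 kb from the start (chr19:55953301-55953620), with 1.28 and 1.22, and 199.2 kb from it (chr19:55940861-55941200), with 1.05 and 1.22. Of 4 regions within the introns, the tallest by the mean of both libraries was at chr19:55825542-55825740 with 0.752 and 0.751. The lowest intronic region by the mean, with 0.478 and 0.459, had no footprint in either library, the only one of the 72 without any.

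Pdgfra (chromosome 5) encodes the receptor through which platelet-derived growth factor keeps precursors dividing and alive. Its open promoter was not at the outermost start. Replicate 2 alone had a peak there, 967 bp upstream (chr5:75151262-75151388), with a height of 1.04. The shared promoter regions lay at internal annotated start sites. The region 4.1 kb into the gene (chr5:75156221-75156510, in a UTR) had 1.25 in replicate 1 and 1.13 in replicate 2, a mean of 1.19 ± 0.0905 (SD, n = 2). The region 5.0 kb into the gene (chr5:75157161-75157336, intronic) had 1.21 and 0.984. Each held 2 shared footprints. The tallest region away from start sites lay in a coding exon (chr5:75163352-75163720), with 0.788 and 0.834, and an intergenic region 95.2 kb from the start had 0.717 and 0.801. The exonic region stood at percentiles 38.7 and 49.3 of regions away from start sites.

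Cspg4 (chromosome 9), which encodes the NG2 proteoglycan of precursors and also marks pericytes, had open introns and no promoter peak. All 7 shared regions nearest to it lay inside the gene. The tallest, in an intron 3.4 kb from the start (chr9:56868321-56868640), had 3.02 in replicate 1 and 2.36 in replicate 2, percentiles 96.9 and 94.4 of regions away from start sites. It held 4 shared footprints from 5 and 6. A second intronic region (chr9:56869581-56869860) had 1.48 and 1.38, and a region in a coding exon (chr9:56889851-56890060) had 1.33 and 1.39. The other 4 ranged from 0.931 to 1.30 in replicate 1 and from 0.976 to 1.41 in replicate 2. None of the 3 annotated start sites had a peak within 1000 bp. Of the neighbours, the Imp3 promoter had 3.64 and 3.08 and that of Snx33 1.60 and 1.57.

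Open regions inside the gene but away from start sites were found in 5 of the 10 genes, beside 28.4% of all coding genes. In the lists of other genes it was 8 of 12 astrocyte genes and 11 of 26 other lineage genes. It was 4 of 12 myelin genes and 2 of 8 cortical markers. The genes were Cspg4 with 7, Tcf7l2 with 4, Nkx2-2 with 3, Sox8 with 2 and Pdgfra with 1. Of the 3 genes with no promoter peak in either library, Cspg4 and Nkx2-2 had open regions inside the gene and Myrf had none. Open regions inside a gene without a promoter peak were not particular to the 10. The astrocyte genes Aqp4 and Fgfr3 and the myelin genes Mbp and Opalin had them too. No test of this pattern is possible with 10 chosen genes, and gene length differed from 2.2 kb for Olig1 upwards.

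The regions around the 10 genes were measured alike in both libraries. The log2 ratio of replicate 2 to replicate 1 had a median of 0.02 and ran from -0.50 to 0.54, beside a median of -0.06 over all shared regions. None of the 72 differed by more than 1.5-fold, beside 11.5% of all shared regions, and 34 were higher in replicate 1, beside 57.0% of all. As a description over these 72 regions, which share the same libraries, Spearman's rho was 0.937 and Pearson's r of the log2 heights was 0.961. Median heights were 1.20 and 1.21, beside 1.07 and 1.02 over all shared regions. For the 50 away from start sites they were 1.18 and 1.21, beside 0.920 and 0.851. GC content was also higher, with a median of 55.9% for these 50 beside 51.7% for all such regions, and its part in the heights was not tested.

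**Figure D4:**
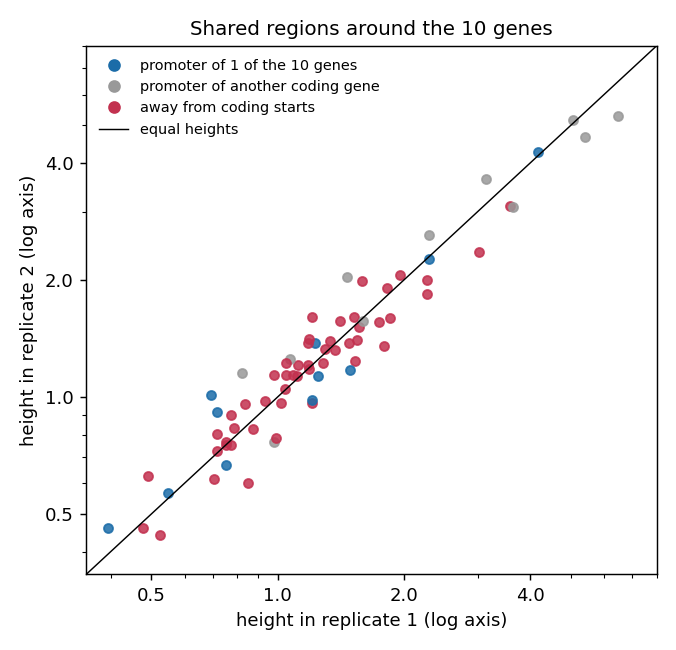
Height of each of the 72 shared regions in replicate 1 (horizontal log axis) and replicate 2 (vertical log axis), coloured by position relative to coding start sites, with the line of equal heights. All points lie within 1.5-fold of the line, with log2 ratios from -0.50 to 0.54.

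Over the whole windows, which include regions of neighbouring genes, the share of regions with a shared footprint was close to that elsewhere. A footprint called in both libraries lay in 45 of the 72 regions, or 62.5%, beside 63.0% of all shared regions. Within the 72 there were 181 footprints in replicate 1 and 231 in replicate 2, of which 100 overlapped between libraries. These were 55.2% of the replicate 1 footprints, beside 60.1% over all shared regions. Away from start sites, 32 of the 50 regions held a shared footprint, or 64.0%, beside 57.5% of all such regions. For the 36 of these nearest to 1 of the 10 genes it was 19, or 52.8%. Of all 47 regions nearest to the 10 genes, 24 held a shared footprint, a lower share than over the whole windows. By window, shared footprints numbered 27 at Sox8, 21 at Cspg4 and 14 at Myrf, the last all in regions of neighbouring genes. Nkx2-2 had 7 in its 3 regions, and Pdgfra had 4.

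Short words read by families of transcription factors were counted in the central 200 bp of each region, on both strands. The words were ACAANG (SOX), CAGNTG and CATATG (E-boxes, bound by bHLH factors), CTTTGA (TCF/LEF), CACTTNA (NKX2), CTGGNAC (MYRF), TGANTCA (AP-1) and TTGGCA (NFI), and matches of different words may overlap. The SOX word occurred in 30.6% of the 72 regions and in 29.2% of all shared regions. The CAGNTG word occurred in 36 of the 72, beside 48.9% of all, the MYRF word in 16.7% and 16.4%, and the NFI word in 18.1% and 16.5%. The CATATG word occurred in 2.78% and 3.21% and the NKX2 word in 5.56% and 7.88%. The TCF/LEF word was somewhat more frequent, 15.3% beside 10.2%, and the AP-1 word less so, 4.17% beside 8.10%, which are differences of a few regions.

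In the 36 regions away from start sites and nearest to 1 of the 10 genes, the SOX word occurred in 27.8%, beside 33.5% of all regions away from start sites. The CAGNTG word occurred there in 47.2%, beside 56.4%, so both differences have the opposite sign to those over the 72.

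Matches that touched a shared footprint were few. For the SOX word there were 4 of 72 regions, or 5.56% beside 2.39% of all. All 4 were nearest to neighbouring genes, namely 1700088E04Rik, Lmf1, Fen1 and Odf3l1, and 0 were nearest to 1 of the 10 genes. The higher share therefore describes the windows and not the 10 genes. The CAGNTG word touched a shared footprint in 3 regions, 4.17% beside 7.89%. These were the exonic region of Nkx2-2, the region 36.1 kb downstream of Olig1 and the internal promoter region of Pdgfra at 5.0 kb. The Olig1 region was also the only 1 where the MYRF word did so. In the 8 printed stretches no match of any of the words touched a capital base. A word match is a description of the letters and does not show which protein was bound.

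Other genes of the lineage, 26 in a list of further regulators and precursor genes, are given for reference. Of these, 22 had promoter peaks in replicates 1 and 2. Their median promoter heights were 2.12 and 2.24, beside 1.37 and 1.27 for the 6 open promoters above. The highest were Etv5, an ETS factor, at 16.8 and 17.3, and Smarca4, the ATPase of a chromatin remodelling complex, at 13.3 and 13.7, both genes with uses in many cell types. The precursor genes Vcan (1.82 and 2.09) and Ptprz1 (1.62 and 1.08) were closer to Pdgfra (1.25 and 1.13) than those were. Vcan was above Pdgfra in both libraries and Ptprz1 in replicate 1 alone. They are examples, and other genes of the list were also low, such as Gpr17 (1.36 and 1.31) and Lhfpl3 (1.03 and 0.792). The median density of the 26 was 3.19 regions per 100 kb, beside 5.28 for the 10.

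Among 12 genes of myelin proteins and myelin lipid enzymes, which serve mature oligodendrocytes, 3 had promoter peaks in both, 2 in 1 library and 7 in neither. The 3 were Cnp at 1.15 and 1.07, Mal at 0.514 and 0.334, and Aspa at 0.430 and 0.250. Mog and Mag, which encode major myelin proteins, were among the 7, as were Mbp and Opalin. Of the 12, 4 had a shared region inside the gene away from start sites. These were Mbp with 10, and Cnp, Opalin and Ugt8a with 1 each. The tallest had 2.83 in replicate 1 and 2.06 in replicate 2 at Mbp, and 2.21 and 2.06 at Opalin. Mog and Mag had 0. Of 12 astrocyte genes, 8 had promoter peaks in both, 2 in 1 library and 2 in neither, with median heights of 1.93 and 1.61. Sox9 is in both the astrocyte list and the list of lineage regulators, at 3.68 and 3.67. The median density of the astrocyte genes was 4.72, and away from start sites 3.48, beside 2.88 for the 10 lineage genes.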

How the data were processed

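The authors deposited peak lists, footprints and a cut-rate track per library, on assembly mm10 per the labels. For the aligner and the callers, the names are not given in the sources used here. Peak heights are the deposited signal values, whose scale is not stated. The deposited footprint column holds the constant 0.01 and the deposited cut-rate track a false discovery rate, both p-value or q-value kinds of unit. Reads of an F1 hybrid may map less well at variants of the parent that is not the reference, which was not tested.

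The longer of 2 deposited peak lists per library was used. Peaks were joined, annotated with GENCODE M21 and read against the mm10 sequence with Python 3.11.15, NumPy 2.4.6, pandas 2.3.3, SciPy 1.17.1, pysam 0.24.0 and matplotlib 3.10.9, and the joining was tested on simulated peaks. Distances run from the outermost start to the middle of a region, and percentiles are over all coding genes or all shared regions of the kind named. The 10 genes and all lists were chosen with earlier results of these data known. All 10 genes are named, each with its promoter peaks and its tallest region away from start sites, or the 3 tallest where the window holds 10 or more. Sequences were printed for regions free of exons, at most 6, and further regions and both Olig promoters were added after values were seen. With 1 group of 2 libraries there was no test and no paired comparison. Peak lists, overlap, promoter width, window and single libraries were varied. Single values of some genes in the lists are not reported here.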

Additional observations from a re-analysis of the deposited data

How the results depend on the processing

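No paired analysis was possible because both libraries belong to 1 group. With the shorter peak lists the 72 shared regions became 40, those away from start sites 27 instead of 50, and the median density 2.92 per 100 kb instead of 5.28. With 10 kb flanks there were 41 regions, 26 away from start sites and 22 with a shared footprint instead of 45. With the gene span alone these were 26, 17 and 13, and the density 12.2. With regions nearest to each gene alone there were 47, with 24 holding a shared footprint, and the density was 3.26. Fewer peaks or shorter windows hold fewer regions by construction. The share with a shared footprint changed too. It was lower with 10 kb flanks (22 of 41), the gene span (13 of 26) and the nearest regions (24 of 47) than in the main setting (45 of 72). With the shorter lists it was higher (31 of 40). With 1 library left out, the density ranged from 6.57 to 8.99 and the regions with a footprint from 65 to 86, since peaks and footprints then need no partner. Medians over all coding genes moved too. They were 2.04 with the shorter lists, 2.96 with the gene span, 4.64 with replicate 1 alone and 4.65 with replicate 2 alone. With 10 kb flanks the median was 6.36 for the 10, beside 3.60. In a short span such as that of Olig1, 2.2 kb, a few regions give a high density. The density of 7 of 10 genes exceeded the median of coding genes in the main setting, and of 6 to 8 under the alternatives tried for it. Those did not include the setting with nearest regions alone, whose 3.26 has no value over coding genes beside it. Open promoters numbered 4 with the shorter lists, losing Pdgfra and Zfp488, 5 where peaks had to overlap by 50% of both, losing Zfp488, and 7 with a promoter of 2000 bp, gaining Cspg4. All 28 alternative promoter heights stayed within the SD between libraries, which for a single library holds by construction. In the other settings the same tallest peak was read again, so its height was identical. The 28 leave out Pdgfra and Zfp488 with the shorter lists, where no height was left. This count therefore says little about how stable the heights are. Depth is unknown, so a missing peak at Sox10, Nkx2-2, Myrf or Cspg4 is a missing call.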

Other observations

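Some peaks in the windows of the 10 genes were called in 1 library alone. Over all windows there were 15 such peaks in replicate 1, with heights from 0.406 to 0.943, and 23 in replicate 2, from 0.325 to 1.16. Shared peaks were 82.8% of those in the windows in replicate 1, beside 73.3% of all its peaks, and 76.3% in replicate 2, beside 71.7%. In the other library, 2 of the 15 and 4 of the 23 held bases listed below a false discovery rate of 0.05. The Tcf7l2 window had 5 in replicate 1 and 4 in replicate 2, Sox10 had 3 and 5, Sox8 had 1 and 4, and Myrf had 4, all in replicate 2, while Nkx2-2 had none. A replicate 2 peak 2594 bp upstream of Olig2 (chr16:91222661-91223065), in an exon of the noncoding gene Gm49614, had a height of 0.976, and replicate 1 had 5 listed bases there. Of 7933 coding genes without a promoter peak in either library, 25 had listed promoter bases in both, or 0.315%.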
